A study of Homo sapiens with 6 samples.

Results

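Small nucleolar RNAs (snoRNAs) and small Cajal body RNAs (scaRNAs) were followed in ALL-SIL cells, a human T-cell acute lymphoblastic leukaemia line, after JQ1, an inhibitor of BET bromodomain proteins. A gene was included where its GENCODE name began with SNORA, SNORD or SCARNA and it held 10 or more reads in at least 3 of the 6 libraries. This left 106 of the 450 such genes in the files: 47 of 147 SNORA genes, 45 of 278 SNORD genes and 14 of 25 SCARNA genes. The genes were thus selected on their read counts, and their levels are given as a description. The difference between treatments was not used in the choice. A gene could still pass through the libraries of a single group, as SNORA58 did through those with DMSO, and this favours a difference.

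Total RNA was sequenced in 6 libraries, 3 from JQ1-treated cells and 3 from DMSO controls, numbered 1 to 3 in each group. The JQ1 dose was 1 µM for 24 h. The treatment text repeats that dose and time for the controls, so the groups rest on the sample titles, and nothing says how the DMSO controls were exposed. All libraries came from 1 established cell line, and nothing says whether the replicates were separate cultures, so the p-values rest on a spread between libraries that may be only technical.

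Most snoRNAs in human cells are cut from the introns of other genes, called host genes, and are held by a set of core proteins. H/ACA snoRNAs, named SNORA, guide the change of uridine to pseudouridine, and C/D snoRNAs, named SNORD, guide 2′-O-methylation, mainly on ribosomal RNA. A few, such as U3, U13, U14 and U17, take part in the cutting or processing of the ribosomal RNA precursor, and scaRNAs guide the same modifications on spliceosomal RNAs in Cajal bodies.

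The annotated sequences carry the boxes that define the classes, which are shown here for the genes on which the results turn. The sequences are GENCODE release 29 transcripts on GRCh38, written 5′ to 3′ in DNA letters. Capitals mark the C box (TGATGA, in the first 20 bases) and the D box (CTGA, in the last 20 bases) of C/D RNAs, and the ACA box that lies 3 bases from the end of H/ACA RNAs. The first 3 are copies of SNORD116 from chr15, all on the plus strand: SNORD116-6 (chr15:25065026-25065121), SNORD116-27 (chr15:25101575-25101666) and SNORD116-19 (chr15:25086527-25086618), of which the first and second fell with JQ1. SCARNA7 (minus strand) rose, and its last 100 bases (chr3:160514907-160515006) are given. SNORA73B (chr1:28508559-28508762, plus strand) and SCARNA21 (chr17:7906122-7906260, plus strand) were among the most abundant genes that were not called.
SNORD116-6: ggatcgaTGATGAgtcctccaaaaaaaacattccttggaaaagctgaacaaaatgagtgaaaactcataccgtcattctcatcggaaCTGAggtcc
SNORD116-27: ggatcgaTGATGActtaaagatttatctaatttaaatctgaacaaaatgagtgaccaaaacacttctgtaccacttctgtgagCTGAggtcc
SNORD116-19: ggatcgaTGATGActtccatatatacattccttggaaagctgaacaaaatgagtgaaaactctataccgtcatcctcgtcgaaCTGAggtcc
SCARNA7, last 100 bases: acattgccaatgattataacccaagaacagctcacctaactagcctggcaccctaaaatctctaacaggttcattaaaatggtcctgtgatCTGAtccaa
SNORA73B: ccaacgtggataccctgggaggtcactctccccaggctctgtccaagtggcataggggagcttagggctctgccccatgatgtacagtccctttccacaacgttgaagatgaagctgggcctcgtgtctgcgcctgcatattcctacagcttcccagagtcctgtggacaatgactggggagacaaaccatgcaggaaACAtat
SCARNA21: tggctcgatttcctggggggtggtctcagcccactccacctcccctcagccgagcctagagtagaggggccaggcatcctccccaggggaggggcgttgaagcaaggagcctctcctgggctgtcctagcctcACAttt

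The motifs followed the names. On the RNA strand, TGATGA stood in the first 20 bases of 36 of the 45 SNORD genes (80.0%), of 0 of the 47 SNORA genes and of 0.481% of 205973 other annotated transcripts. CTGA stood in the last 20 bases of 42 SNORD genes (93.3%), 7 SNORA genes (14.9%) and 9.26% of the other transcripts. ACANNN formed the 3′ end of 34 SNORA genes (72.3%), 9 of the 14 SCARNA genes (64.3%), 2 SNORD genes (4.44%) and 2.32% of the other transcripts. The opposite strand was also read 5′ to 3′, so its first bases lie at the other end of the gene. Read so, TGATGA stood in the first 20 bases of 1 SNORD gene and CTGA in the last 20 bases of 6. ACANNN formed the 3′ end of the opposite strand of 2 SNORA genes.

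The libraries held 24857219, 22109783 and 15925885 gene counts in JQ1 replicates 1, 2 and 3, against 20391040, 25293884 and 24867762 in DMSO replicates 1, 2 and 3. Of 13975 genes tested with edgeR's quasi-likelihood test, 5110 (36.6%) passed a Benjamini-Hochberg adjusted p of 0.05, 2227 of them higher with JQ1 (15.9%) and 2883 lower (20.6%). Levels are given as CPM, reads scaled to a library of 1000000 gene counts. The 11 markers listed for this T-cell leukaemia line summed to 1312 to 1481 CPM in JQ1 libraries and 1846 to 1954 CPM in DMSO libraries. They did not move together. Of the 10 tested, TLX1 was called higher (log2 0.45) and 7 lower, among them CD3D (log2 -0.52), CD7 (log2 -0.48), LCK (log2 -1.86) and CD1A (log2 -4.85). ABL1 and NUP214, also in the sum, were not called, and PTCRA was too low to test. Myeloid markers summed to at most 0.329 CPM with JQ1 and 0.471 CPM with DMSO. B-cell markers, mainly CD79A and CD79B, summed to 1.61 to 6.34 CPM in JQ1 libraries and 11.5 to 24.5 CPM in DMSO libraries, with MS4A1 at 0. Their part in the results was not tested.

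The summed levels of the snoRNAs and scaRNAs differed between JQ1 and DMSO by less than the spread of the replicates. CPM here are scaled by TMM factors and are shares of the RNA that was counted, so fewer cells of a kind and less RNA per cell cannot be told apart. SNORA genes summed to 474, 543 and 320 CPM in JQ1 replicates 1, 2 and 3, against 467, 586 and 332 CPM in DMSO replicates 1, 2 and 3. In both groups replicate 2 was the highest and replicate 3 the lowest, and the groups overlapped. SNORD genes summed to 225, 249 and 194 CPM with JQ1 and 205, 267 and 177 CPM with DMSO. SCARNA genes summed to 471, 586 and 463 CPM with JQ1 and 445, 546 and 401 CPM with DMSO. For SCARNA, each JQ1 sum was above the DMSO sum of the same number. The order of the replicates was the same in all 3 classes, and the difference between replicates 2 and 3 was larger than that between the treatments. Together the 106 genes took 0.117%, 0.133% and 0.0951% of gene counts with JQ1 and 0.111%, 0.141% and 0.0966% with DMSO.

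**Figure D1:**
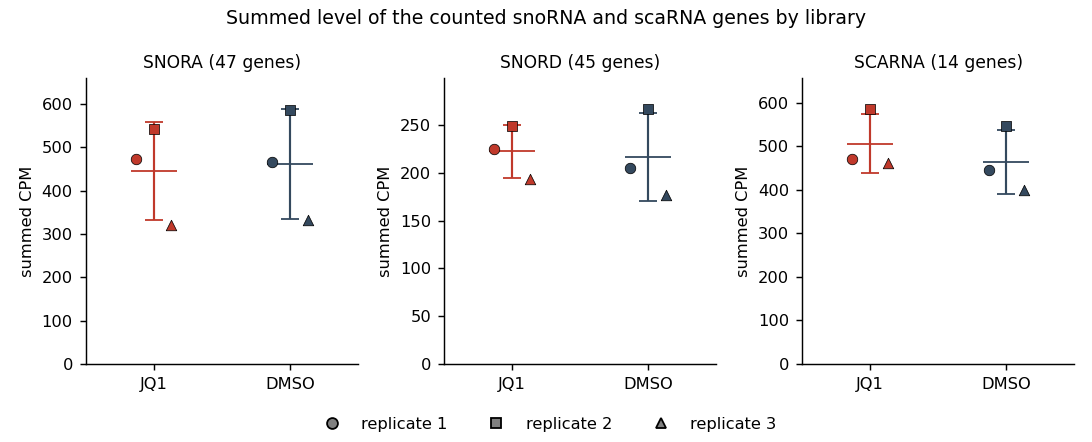
Summed CPM of the SNORA, SNORD and SCARNA genes in each library (points, shaped by replicate number), with the mean (long bar) and SD (whiskers) of the 3 JQ1 and the 3 DMSO libraries. The groups overlap in each class, from 320 to 543 CPM with JQ1 and 332 to 586 CPM with DMSO for SNORA, and replicate 2 is the highest in both.

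A few genes made up most of each class. SNORA73B (U17b), an H/ACA RNA of ribosomal RNA precursor processing, gave 61.3% of the SNORA sum, and with SNORA54, SNORA12 and SNORA53 it gave 74.2%. SNORD17, a C/D RNA that guides methylation of 28S ribosomal RNA, gave 34.7% of the SNORD sum, and with SNORD13 (U13), SNORD3B-2 (U3) and SNORD104 it gave 64.3%. SCARNA13 gave 46.1% of the SCARNA sum, and with SCARNA7 (U90), SCARNA21 and SCARNA5 (U87) it gave 94.0%. Per kilobase of annotated length, SNORA73B was the highest at 1363 CPM per kb, followed by SCARNA13 at 813, SCARNA21 at 517, SNORD13 at 400, SCARNA7 at 376 and SNORD17 at 322 CPM per kb. Annotated lengths ran from 123 to 272 bases for SNORA, 64 to 791 bases for SNORD and 125 to 353 bases for SCARNA. Of the 106 genes, 36 averaged under 1 CPM (9 SNORA, 21 SNORD and 6 SCARNA). Nearest the limit of 10 reads, SCARNA18 was just inside with 8, 10 and 5 reads with JQ1 and 9, 15 and 10 with DMSO. Just outside, SNORD3A, a U3 copy, had 9, 8 and 9 reads with JQ1 and 4, 11 and 9 with DMSO. SCARNA12, SNORA11B, SNORA26, SNORA30, SNORA63D, SNORD117, SNORD63 and SNORD82 also missed it with 9 reads in their third-highest library.

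Some well-known snoRNAs were listed at 0. Of the 344 genes that were not included, 247 were listed at 0 in all 6 libraries. Of these 247, 139 (56.3%) overlapped an annotated exon of another gene on the same strand, against 22 of the other 97 (22.7%) and 10 of the 106 included genes (9.43%). Among those at 0 with such an overlap were SNORA73A in SNHG3, SNORA62 in RPSA, SNORA63 in EIF4A2, SNORD118 (U8) in TMEM107, SNORD22 in SNHG1, SNORD14B in RPS13, and SNORD14C and SNORD14D in HSPA8. Of the scaRNA genes, SCARNA2, SCARNA15, SCARNA16 and SCARNA17 were listed at 0 in the same way. Why these genes were at 0 was not tested, and nothing is read from these zeros on their level.

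Few snoRNA or scaRNA genes were called between JQ1 and DMSO. Of the 106 genes, all of which were among the 13975 tested, 3 rose and 3 fell (6 called, 5.66%, against 36.6% of all genes tested). SNORD3B-1, SNORD3B-2 and SCARNA7 rose, and SNORD116-6, SNORD116-27 and SNORD46 fell. None of the 47 SNORA genes was called by edgeR or by DESeq2 (which called 35.8% of all genes). At an unadjusted p under 0.05 by edgeR, 2 of them were lower and 0 higher, against 24.7% and 21.4% of all genes tested. Of the 45 SNORD genes, 2 rose and 3 fell (11.1%), and of the 14 SCARNA genes 1 rose and 0 fell (7.14%). JQ1 and DMSO libraries were fully apart for 15 of the 106 genes (14.2%), 5 with JQ1 higher and 10 with JQ1 lower, against 48.9% of all genes tested (22.9% higher and 26% lower). With the replicate number as a block, 56.9% of all genes were called (27.3% higher and 29.6% lower), and so were 3 SNORA genes (all lower), 8 SNORD genes (4 higher and 4 lower) and 1 SCARNA gene (higher). Without JQ1 replicate 3, where 29% of all genes were called, 0 SNORD genes were called higher. Without JQ1 replicate 1, where 29.3% were called, 1 SNORD gene was called lower.

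The median log2 fold change of JQ1 over DMSO was 0.00 for SNORA, -0.04 for SNORD, 0.11 for SCARNA and 0.00 for all genes tested. The log2 fold change lay within 0.5 of 0 for 90 of the 106 genes (42 SNORA, 36 SNORD and 12 SCARNA). It ran from -1.08 (SNORA58) to 0.57 (SNORA46) in SNORA, from -1.47 (SNORD116-6) to 0.96 (SNORD3B-1) in SNORD and from -0.58 (SCARNA18B) to 0.92 (SCARNA20) in SCARNA. The 95% interval lay within 1 of 0 on the log2 scale for 70 genes (35 SNORA, 26 SNORD and 9 SCARNA), so a doubling and a halving were both outside the interval for these genes, and at least 1 of them was not for the other 36. Other genes of similar level were compared. Between the lower and upper quartiles of the snoRNA levels (0.772 to 4.57 CPM), 2 of 52 snoRNA and scaRNA genes were called, against 785 of 2780 other genes (28.2%). In that range the median SE was 0.29 in both sets, while the median size of the log2 fold change was 0.18 for the snoRNA and scaRNA genes and 0.47 for the other genes. This range was chosen after the data were seen.

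**Figure D2:**
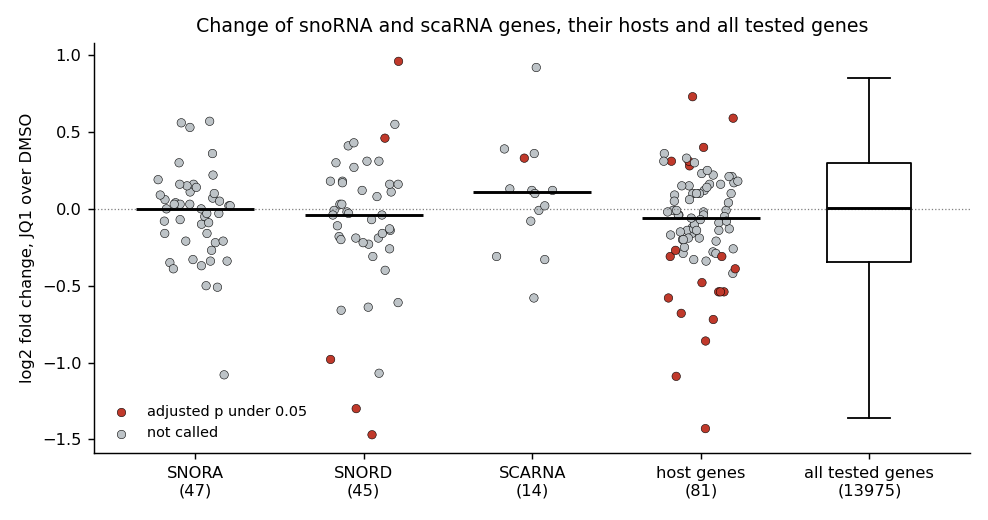
Log2 fold change of JQ1 over DMSO for each SNORA, SNORD and SCARNA gene and each host gene (points, red where the edgeR adjusted p was under 0.05, with the median as a bar), beside a box of all 13975 tested genes (box: quartiles, whiskers: 5th to 95th percentile). Called genes are 0 of 47 SNORA, 5 of 45 SNORD, 1 of 14 SCARNA and 20 of 81 hosts.

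Among the RNAs of ribosomal RNA precursor processing, the counts of both SNORD3B (U3) genes rose, which does not measure U3 as a whole. U3 is needed for the early cuts that free 18S ribosomal RNA. SNORD3B-1 (ENSG00000265185.5, chr17:19061912-19062669, plus strand) had 150, 134 and 152 reads in JQ1 replicates 1, 2 and 3 (6.06, 6.29 and 9.80 CPM), against 65, 78 and 132 reads in DMSO replicates 1, 2 and 3 (3.20, 3.06 and 5.0 CPM). Every JQ1 library was above every DMSO library, and replicate 3 was the highest in both groups. It rose by 0.96 ± 0.25 on the log2 scale (SE; 1.94-fold; edgeR adjusted p = 0.014). Leaving out JQ1 replicate 3 gave 0.71 and leaving out DMSO replicate 1 gave 0.86, each at an edgeR adjusted p of 0.052.

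SNORD3B-2 (ENSG00000262074.6, chr17:19063346-19064136, minus strand) had 15.1, 14.5 and 15.3 CPM with JQ1, against 11.6, 11.7 and 9.32 CPM with DMSO. The groups did not overlap, and it rose by 0.46 ± 0.13 on the log2 scale (SE; 1.38-fold; edgeR adjusted p = 0.02). The edgeR adjusted p was 0.055 when JQ1 replicate 1 was left out, 0.056 without JQ1 replicate 3 and 0.061 without DMSO replicate 3, at log2 fold changes of 0.46, 0.45 and 0.37. The annotated SNORD3B-1 and SNORD3B-2 are identical over their first 266 bases, where SNORD3A differs from each by 1 base and SNORD3C by 2. Reads that fit several copies were left out of the counts, so the level of U3 as a whole was not measured, and the split between the copies is uncertain. A read wholly within those 266 bases would fit both SNORD3B genes, so their counts lean on annotated sequence beyond them. Whether finished U3 rose cannot be told from these counts. SNORD3C had 0.849, 1.13 and 0.516 CPM with JQ1, against 0.985, 1.69 and 0.682 CPM with DMSO, and was not called (log2 -0.40 ± 0.40 SE, edgeR adjusted p = 0.47).

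The other precursor-processing RNAs were not called. Of 17 genes listed for this role, 7 were tested, 2 of them rose (the SNORD3B genes) and 0 fell; their median log2 fold change was -0.05. SNORA73B, the most abundant of all, had 294, 336 and 188 CPM with JQ1, against 296, 358 and 197 CPM with DMSO. Each replicate number gave nearly the same level in both groups, and replicate 3 was the lowest in each. This gave a log2 fold change of -0.05 ± 0.27 (SE; 95% interval -0.68 to 0.57). SNORD13, which stands on its own promoter and pairs with 18S ribosomal RNA, had 41.7, 44.6 and 31.5 CPM with JQ1 and 38.5, 60 and 33.4 CPM with DMSO (log2 -0.16 ± 0.23 SE). SNORD14A and SNORD14E are copies of U14, which both guides methylation and takes part in the making of 18S ribosomal RNA. SNORD14A had 1.98, 1.88 and 1.87 CPM with JQ1 and 2.46, 2.20 and 2.08 CPM with DMSO (log2 -0.23 ± 0.22 SE, edgeR adjusted p = 0.44). SNORD14E had 2.91, 2.39 and 3.09 CPM with JQ1 and 1.92, 2.16 and 1.63 CPM with DMSO, with an edgeR adjusted p of 0.08 (log2 0.55 ± 0.23 SE) and of 0.033 with the replicate block. Neither U14 copy had overlapping groups, as was so for 48.9% of all genes tested, and the 2 copies lay on opposite sides of their DMSO values.

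Among the scaRNAs, SCARNA7 rose by 1.26-fold. SCARNA7 (ENSG00000238741.1) is a C/D scaRNA that guides methylation of U1 spliceosomal RNA and lies in an intron of KPNA4. It had 3023, 3271 and 2166 reads in JQ1 replicates 1, 2 and 3 (122, 154 and 140 CPM), against 2099, 3156 and 2688 reads in DMSO replicates 1, 2 and 3 (103, 124 and 102 CPM). JQ1 replicate 1 lay below DMSO replicate 2, so the groups overlapped, although each JQ1 library was above the DMSO library of the same number. SCARNA7 rose by 0.33 ± 0.11 on the log2 scale (SE; 95% interval 0.09 to 0.58; edgeR adjusted p = 0.039, and 2.4e-05 with the replicate block). The edgeR adjusted p was 0.13 without JQ1 replicate 2, 0.087 without JQ1 replicate 3, 0.12 without DMSO replicate 1 and 0.11 without DMSO replicate 3, with log2 fold changes of 0.25, 0.33, 0.30 and 0.29. It was 0.053 with unstranded counts and 0.071 when libraries were scaled by size alone.

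The other abundant scaRNAs were not called. SCARNA13 had 213, 268 and 194 CPM with JQ1, against 212, 273 and 182 CPM with DMSO (log2 0.02 ± 0.16 SE, 95% interval -0.35 to 0.38). SCARNA21, an H/ACA scaRNA, had 67.7, 84.3 and 73.0 CPM with JQ1, against 64.1, 75.8 and 66.2 CPM with DMSO (log2 0.13 ± 0.11 SE, 95% interval -0.11 to 0.36). SCARNA5, which carries both box types, had 35.5, 46.2 and 31.0 CPM with JQ1, against 36.2, 41.9 and 27.5 CPM with DMSO (log2 0.10 ± 0.18 SE). The groups overlapped for all 3. By type, 1 of 2 tested C/D scaRNAs (SCARNA7, not SCARNA9) rose, and 0 of 9 H/ACA and 0 of 3 mixed scaRNAs were called. The median log2 fold changes of the types were 0.34, 0.02 and 0.10. The mixed type held SCARNA12, which was tested but missed the read limit, and the included SCARNA18B was on none of these lists.

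The other abundant H/ACA snoRNAs were not called either. SNORA54 had 23.8, 32.3 and 15.1 CPM with JQ1 and 22.3, 37.0 and 15.7 CPM with DMSO (log2 -0.07 ± 0.37 SE). SNORA12 had 21.9, 24.3 and 17.1 CPM with JQ1 and 18.4, 26.4 and 16.9 CPM with DMSO (log2 0.04 ± 0.19 SE). SNORA53, which overlaps an exon of its host SLC25A3, had 16.4, 17.6 and 5.93 CPM with JQ1 and 12.7, 20.5 and 6.55 CPM with DMSO (log2 0.02 ± 0.52 SE, 95% interval -1.23 to 1.27). What that overlap does to its counts was not tested. Replicate 3 was the lowest in both groups for all 3 genes. With the replicate block 3 other SNORA genes were called lower by edgeR, named here after their values were seen: SNORA3B (log2 -0.49, adjusted p = 0.043), SNORA58 (log2 -1.13, adjusted p = 0.046) and SNORA5C (log2 -0.35, adjusted p = 0.047). SNORA58 had passed the read limit through its DMSO libraries only, which favours a fall.

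Of the C/D snoRNAs that guide modification, SNORD17 had 76.9, 105 and 59.2 CPM with JQ1, against 66.0, 100 and 50.2 CPM with DMSO. Each JQ1 library was above the DMSO library of the same number, but the groups overlapped (log2 0.16 ± 0.30 SE, edgeR adjusted p = 0.72, and log2 0.17 with an adjusted p of 0.02 with the replicate block). SNORD104, another guide for 28S ribosomal RNA, had 10.7, 8.78 and 9.86 CPM with JQ1 and 11.0, 11.7 and 10.7 CPM with DMSO (log2 -0.19 ± 0.14 SE, edgeR adjusted p = 0.31). Its groups did not overlap, as was so for 48.9% of all genes tested. SNORD73B in RPS3A, named after its values were seen, was called lower with the replicate block (log2 -1.1, edgeR adjusted p = 0.022) and not without it (log2 -1.07 ± 0.43 SE, edgeR adjusted p = 0.077).

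SNORD46, a guide for 28S ribosomal RNA, had 50, 46 and 38 reads in JQ1 replicates 1, 2 and 3 (2.02, 2.16 and 2.45 CPM), against 64, 82 and 172 reads in DMSO replicates 1, 2 and 3 (3.15, 3.22 and 6.52 CPM). The groups did not overlap, and DMSO replicate 3 stood well above all other libraries. The log2 fold change was -0.98 ± 0.30 (SE; 1.97-fold lower with JQ1; edgeR adjusted p = 0.028). Leaving out DMSO replicate 3 gave -0.53 with an edgeR adjusted p of 0.11. Leaving out JQ1 replicate 1 gave -0.91 and leaving out JQ1 replicate 2 gave -0.96, at edgeR adjusted p-values of 0.087 and 0.066.

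**Figure D3:**
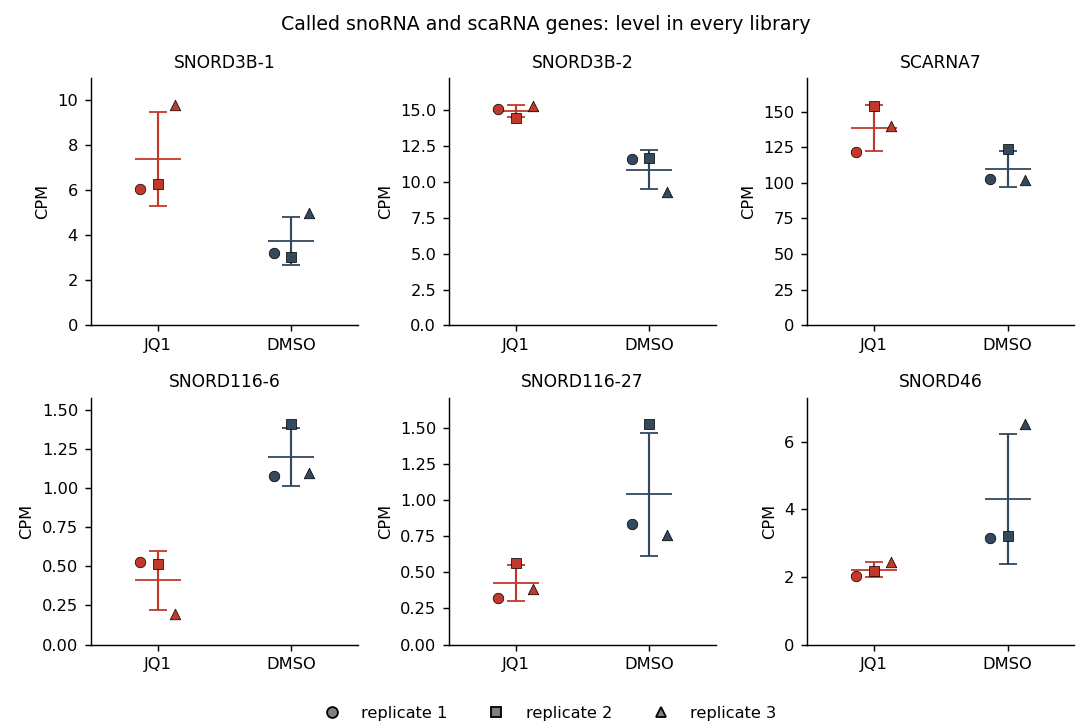
CPM in each library (points, shaped by replicate number) of the 6 called snoRNA and scaRNA genes, with the mean (long bar) and SD (whiskers) of the 3 JQ1 and the 3 DMSO libraries. SNORD3B-1, SNORD3B-2 and SCARNA7 are higher with JQ1 and SNORD116-6, SNORD116-27 and SNORD46 lower, with SNORD46 highest in DMSO replicate 3 at 6.52 CPM.

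The other pair of called C/D genes came from the SNORD116 cluster, an array of near copies within SNHG14 on the imprinted region 15q11-q13, whose loss is linked to Prader-Willi syndrome and for which no ribosomal RNA target is established. SNORD116-6 (ENSG00000207442.1) had 13, 11 and 3 reads in JQ1 replicates 1, 2 and 3 (0.525, 0.516 and 0.193 CPM), against 22, 36 and 29 reads in DMSO replicates 1, 2 and 3 (1.08, 1.41 and 1.1 CPM). The highest JQ1 library was below the lowest DMSO library. The log2 fold change was -1.47 ± 0.37 (SE; 95% interval -2.28 to -0.66; edgeR adjusted p = 0.01). Of the 6 called genes, SNORD116-6 alone kept its call with each of the 6 libraries left out in turn, at -1.67 to -1.2 with edgeR adjusted p-values of 0.02 to 0.041.

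SNORD116-27 (ENSG00000251896.1), which overlaps an exon of SNHG14, had 8, 12 and 6 reads with JQ1 (0.323, 0.563 and 0.387 CPM), against 17, 39 and 20 reads with DMSO (0.837, 1.53 and 0.758 CPM). Reads of several genes were left out and the annotation used in counting is not given, so its level beside SNHG14 is uncertain. The groups did not overlap, and DMSO replicate 2 was the highest. The log2 fold change was -1.30 ± 0.41 (SE; edgeR adjusted p = 0.029, DESeq2 adjusted p = 0.053). Without DMSO replicate 2 it was -0.89, without JQ1 replicate 1 -1.1 and without JQ1 replicate 3 -1.25, with edgeR adjusted p-values of 0.14, 0.11 and 0.073.

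The other 6 SNORD116 copies that were counted were not called, and their log2 fold changes lay on both sides of 0. In their order along the chromosome, the log2 fold changes were -1.47 for SNORD116-6, -0.66 ± 0.32 (SE) for SNORD116-7, -0.19 for SNORD116-13, 0.41 ± 0.34 (SE) for SNORD116-14, 0.11 for SNORD116-18, -0.02 ± 0.19 (SE) for SNORD116-19, -0.64 ± 0.46 (SE) for SNORD116-26 and -1.30 for SNORD116-27. The most abundant copy, SNORD116-19, averaged 4.74 ± 0.81 CPM with JQ1 and 4.78 ± 0.532 CPM with DMSO (SD, n = 3 each). The sequences are close: SNORD116-6 was 99.0% identical to SNORD116-2, SNORD116-7 was identical to SNORD116-5, and SNORD116-19 was identical to SNORD116-17, none of which were included. SNORD116-6 was 87.5% and SNORD116-27 71.7% identical to SNORD116-19. Reads that fit several copies were left out, so the levels of single copies are uncertain.

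The host RNA was not called. SNHG14 had 50.9, 52.1 and 53.6 CPM with JQ1, against 47.0, 53.2 and 65.1 CPM with DMSO, and the groups overlapped (log2 -0.08 ± 0.12 SE, edgeR adjusted p = 0.62). Per library, the log2 ratio of SNORD116-6 to SNHG14 (each with 0.5 CPM added, which understates the change of so low a gene) was -5.65, -5.69 and -6.28 with JQ1, against -4.91, -4.81 and -5.36 with DMSO. The ratios did not overlap (exact permutation p = 0.1, 2-sided, the smallest that 3 against 3 libraries can give). The ratio of SNORD116-27 to SNHG14 overlapped between the groups (exact permutation p = 0.2, 2-sided).

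A host on the same strand was found for 101 of the 106 genes, 81 hosts in all; SNORD13, SNORA11F, SNORD3B-1, SNORD3B-2 and SNORD3C had none. Of the 81 hosts, 6 rose and 14 fell (20 called, 24.7%, against 36.6% of all genes), with a median log2 fold change of -0.06. With the replicate block, 18 hosts rose and 27 fell, where 27.3% of all genes rose and 29.6% fell. The count of hosts that rose was 3 without JQ1 replicate 1 or DMSO replicate 2 (where 29.3% and 29.9% of all genes were called) and 4 without JQ1 replicate 3. By kind, 3 of 13 non-coding RNA hosts fell, 5 of 53 hosts coding for proteins other than ribosomal ones rose and 11 fell, 1 of 12 ribosomal protein hosts rose, and 0 of 3 pseudogene hosts were called. The 14 hosts that fell held 18 of the snoRNA and scaRNA genes, and 0 of these 18 were called by edgeR. With the replicate block 2 of them, SNORA5C and SNORA58 (included through its DMSO libraries only), were called lower. The median log2 fold change of the 18 was -0.18, against -0.56 for their hosts. These hosts were picked by their own fall and the snoRNA and scaRNA genes were not, so the medians are not a like comparison. The median SE of all 106 genes was 0.30 on the log2 scale, and 4 of the 18 share the host SNHG17. A lack of calls among the 18 thus does not show that they kept their level. Of the 7 genes in the 6 hosts that rose, 1 (SCARNA7) was called.

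The widest gap in log2 fold change over the 101 pairs was between SCARNA21 and its host CHD3, a chromatin remodelling factor. CHD3 had 116, 98.5 and 88.9 CPM with JQ1, against 299, 264 and 256 CPM with DMSO (log2 -1.43 ± 0.12 SE, edgeR adjusted p = 2.2e-05). SCARNA21, given above, differed by 0.13 on the log2 scale. Its log2 ratio to CHD3 was -0.77, -0.22 and -0.28 with JQ1, against -2.21, -1.80 and -1.95 with DMSO, a difference of 1.56 (exact permutation p = 0.1, 2-sided). All 3 JQ1 ratios were above all 3 DMSO ratios.

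SCARNA13 and its host SNHG10, a non-coding RNA, showed the same order. SNHG10 had 12.8, 11.5 and 13.7 CPM with JQ1, against 18.7, 19.5 and 18.8 CPM with DMSO (log2 -0.58 ± 0.12 SE, edgeR adjusted p = 0.0032). The log2 ratio of SCARNA13 to SNHG10 was 4.0, 4.48 and 3.78 with JQ1, against 3.47, 3.77 and 3.24 with DMSO, a difference of 0.59 without overlap. SCARNA7 and its host KPNA4, a nuclear import factor, both rose, the host by more. KPNA4 had 243, 252 and 217 CPM with JQ1, against 140, 163 and 125 CPM with DMSO (log2 0.73 ± 0.11 SE, edgeR adjusted p = 0.00076). The log2 ratio of SCARNA7 to KPNA4 was 0.40 lower with JQ1, at -0.99, -0.71 and -0.64, against -0.44, -0.40 and -0.30 with DMSO.

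SNHG17, a non-coding RNA that holds 4 of the H/ACA genes, had 22, 17.4 and 22.4 CPM with JQ1, against 30.4, 31.2 and 40.0 CPM with DMSO (log2 -0.72 ± 0.14 SE, edgeR adjusted p = 0.0028). Its 4 SNORA71 genes had smaller differences, none of them called: log2 -0.21 ± 0.15 (SE) for SNORA71A, -0.16 ± 0.25 for SNORA71B, -0.16 ± 0.30 for SNORA71C and -0.34 ± 0.34 for SNORA71D. The host's value lay outside the 95% intervals of SNORA71A (-0.54 to 0.11) and, narrowly, SNORA71B (-0.70 to 0.39). It lay inside those of SNORA71C (-0.82 to 0.51) and SNORA71D (-1.11 to 0.44). These intervals leave out the host's own SE. The ratio to the host overlapped between the groups for all 4, although in each pair of same-numbered libraries it was higher with JQ1; this was not tested as pairs.

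Several pairs had nearly equal fitted values. Among them, picked after their values were seen, were SNORD48 and C6orf48 (log2 0.27 and 0.28), SCARNA18 and TMEM167A (log2 -0.33 and -0.31), and SNORA58 and MRPL3. SNORA58, named after its values were seen, had 9, 4 and 2 reads with JQ1, against 11, 12 and 14 reads with DMSO (log2 -1.08 ± 0.44 SE, edgeR adjusted p = 0.079), and its host MRPL3, a mitochondrial ribosomal protein gene, fell by 1.09 on the log2 scale (edgeR adjusted p = 1.5e-05). Only the DMSO libraries of SNORA58 reached the limit of 10 reads, so its inclusion favoured a fall. With 0.5 CPM added, more than the 0.371 CPM that SNORA58 averaged, its log2 ratio to MRPL3 was -6.21, -6.41 and -6.63 with JQ1, against -7.01, -7.02 and -6.99 with DMSO, without overlap. SNORA73B and its host SNHG3 were both not called, at log2 fold changes of -0.05 and -0.20.

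Over the 101 pairs, the ratio of the snoRNA or scaRNA to its host was higher in every JQ1 library than in any DMSO library for 4 pairs and lower for 8, while 89 overlapped. Of the 4, SNORA58 and SNORD53 averaged 0.371 and 0.435 CPM, less than the 0.5 CPM added, which pulls such a ratio towards the change of the host alone. Over the 66 pairs whose snoRNA or scaRNA averaged at least 1 CPM, the counts were 2 higher and 6 lower. A full separation has a 2-sided exact permutation p of 0.1, the smallest that these libraries can give. A share of 0.1 of the pairs would thus be expected to separate without any difference between the groups. Whether the counts exceed that share was not tested, so a separation alone does not single out a pair. Spearman's rho between the log2 fold changes of gene and host was 0.38 over the 101 pairs (Pearson's r 0.30), and 0.40 over 81 pairs with 1 gene per host. It was 0.39 for 46 SNORA, 0.34 for 41 SNORD and 0.67 for 14 SCARNA pairs, where Pearson's r was 0.49, 0.26 and 0.30. Spearman's rho was 0.12 within the 18 pairs whose host fell and -0.22 within the 7 whose host rose. Choosing pairs by the host's change narrows its range, so these 2 values cannot be set against the 0.38. All the coefficients describe genes measured in the same 6 libraries, and several share a host. Reads of an unspliced host intron also fall on the snoRNA within it and cannot be told apart from those of the finished RNA in these counts.

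**Figure D4:**
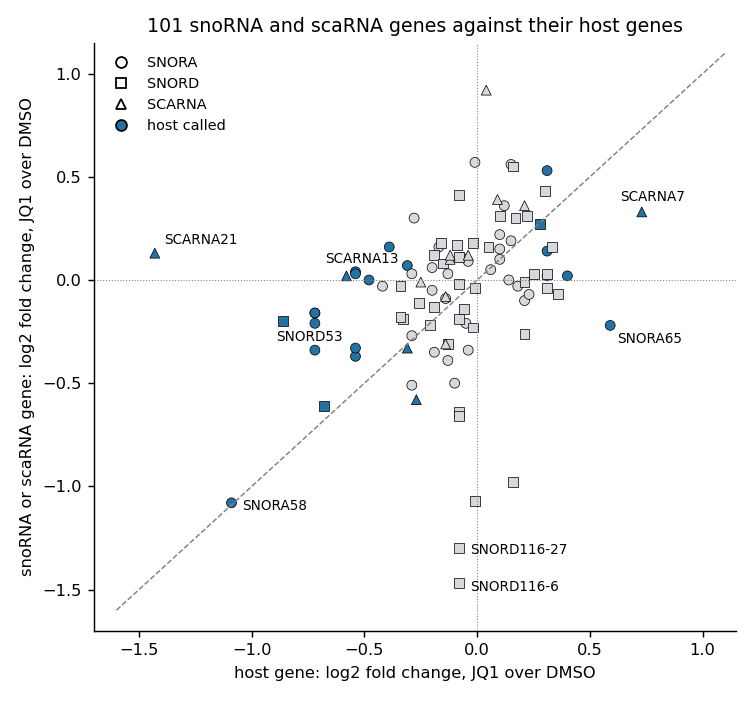
Log2 fold change (JQ1 over DMSO) of 101 snoRNA and scaRNA genes against that of their host genes, with shape by class, blue where the host was called by edgeR and a dashed line where both change equally. SCARNA21 (0.13) lies far above the line at the CHD3 value of -1.43, SNORD116-6 and SNORD116-27 lie far below it, and SNORA58 lies on it.

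The genes for proteins that bind and mature these RNAs were examined next. Of 35 tested genes on 5 lists of snoRNP (snoRNA-protein particle) proteins, 2 rose and 15 fell, with a median log2 fold change of -0.21, against 15.9% higher and 20.6% lower among all genes. Of the 4 H/ACA core genes 3 fell and 0 rose, with a median of -0.70. DKC1 (dyskerin, the pseudouridine synthase) had 96.6, 82.6 and 106 CPM with JQ1, against 167, 144 and 157 CPM with DMSO (log2 -0.72 ± 0.11 SE, edgeR adjusted p = 0.00063). NHP2 and GAR1 fell by 0.68 and 0.72 on the log2 scale, and NOP10 was not called (log2 -0.21, edgeR adjusted p = 0.097, and 0.0045 with the replicate block).

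Of the 4 C/D core genes 2 fell and 0 rose, with a median of -0.24. FBL (fibrillarin, the methyltransferase) had 89.8, 74.7 and 86.0 CPM with JQ1, against 115, 97.3 and 114 CPM with DMSO (log2 -0.38 ± 0.10 SE, edgeR adjusted p = 0.014). SNU13, which binds the box C/D fold, fell by 0.28 on the log2 scale. NOP58 and NOP56 were not called, at log2 -0.19 (edgeR adjusted p = 0.15, and 0.01 with the replicate block) and -0.08.

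Of 12 assembly genes 7 fell and 0 rose, with a median of -0.41. The largest fall was that of TCOF1, whose nucleolar product treacle takes part in ribosomal RNA synthesis and modification, by 0.89 on the log2 scale. ZNHIT6, NOLC1, RUVBL1, RUVBL2, NAF1 (an H/ACA assembly factor) and NUFIP1 (a C/D assembly factor) fell by 0.40 to 0.66. With the replicate block edgeR also called SHQ1 lower (adjusted p = 0.0033) and RPAP3 higher (adjusted p = 0.0039). Of 7 genes of Cajal bodies, the RNA cap and export, COIL (coilin, the Cajal body scaffold) fell by 0.46 and NCBP2 (a cap-binding protein) rose by 0.28 on the log2 scale. Of 8 genes of trimming and decay, TOE1 and EXOSC10 fell by 0.55 and 0.36, while TENT4B, which adds short adenosine tails to nuclear RNAs, had 55.4, 46.6 and 50.2 CPM with JQ1, against 29.5, 26.6 and 25 CPM with DMSO (log2 0.91 ± 0.10 SE, edgeR adjusted p = 0.00014). In these 2 lists the block also called SMN1, which has a near-identical copy, lower (edgeR adjusted p = 0.014) and DIS3 higher (edgeR adjusted p = 0.015). For each gene named here as having risen or fallen without the block, the JQ1 and DMSO libraries did not overlap. The snoRNA and scaRNA genes, with 3 higher and 3 lower of 106, had equal counts in both directions; the difference between the lists was not tested.

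**Figure D5:**
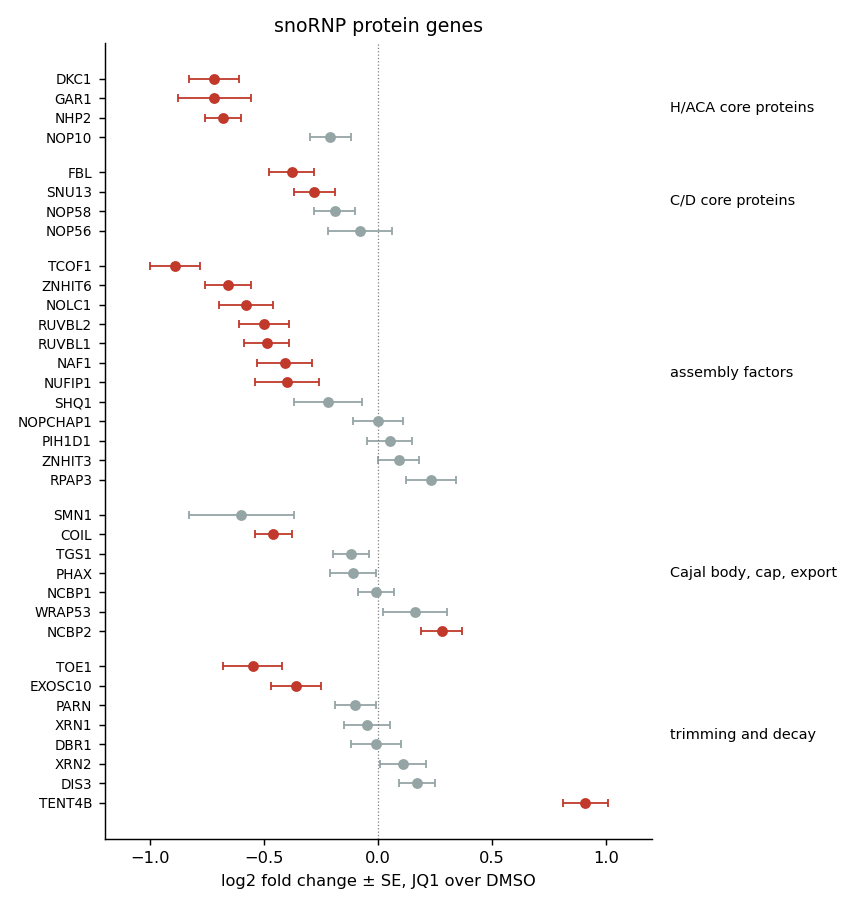
Log2 fold change (JQ1 over DMSO, point) and SE (whiskers) of the 35 tested snoRNP protein genes by list, red where the edgeR adjusted p was under 0.05. In the H/ACA core, DKC1, GAR1 and NHP2 lie at -0.72 to -0.68, and TENT4B is the highest of all at 0.91.

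Other short structured RNAs, which are mostly made from genes of their own, were also counted in part. Of 16 listed, 8 were tested, 1 rose (15.9% of all genes) and 0 fell (20.6% of all genes), with a median log2 fold change of 0.08. RNU4ATAC, an RNA of the minor spliceosome, had 1.41, 1.22 and 1.48 CPM with JQ1, against 0.788, 0.668 and 0.720 CPM with DMSO (log2 0.92 ± 0.27 SE, edgeR adjusted p = 0.023, DESeq2 adjusted p = 0.063). With the replicate block RNU4-1 was also called higher (edgeR adjusted p = 0.00057). RN7SK, RN7SL1, RMRP, RPPH1, RNU12 and RNU7-1 were listed at 0 in all 6 libraries.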

How the data were processed

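The deposited files hold raw read counts per gene for the 6 libraries, not normalised, in 3 columns: unstranded and 1 per strand. Reads were placed on GRCh38, per the submitters' processing notes, with an aligner, version and annotation release not given in the sources used here; the layout is that of STAR gene counts, which leave out reads of several places or genes. The column of the strand that held 20.9 to 22.6 times the reads of the other was used. Reads in the first lines of each file stayed out of all totals: unmapped reads (1.48% to 1.99%), those of several places (14.1% to 15.7%), those outside genes (18.8% to 26.1%) and ambiguous ones (3.38% to 3.88%). Libraries came from a stranded total RNA kit, per the labels' protocols. How far such a kit keeps RNAs as short as these was not measured. Names, positions, hosts and sequences came from GENCODE release 29, in which 53747 of 58096 gene identifiers matched with their version, all 106 snoRNA and scaRNA genes included. Some hosts matched only without their version, among them SNHG14, C6orf48 and CWF19L1, so their gene models at counting may differ from those used here. Where several genes of the same strand held the whole snoRNA, the host was the one with the highest mean CPM.

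Genes were kept with filterByExpr (minimum count 10, minimum total 15) and scaled by TMM factors (0.965 to 1.06). JQ1 was set against DMSO with glmQLFit and glmQLFTest of edgeR 4.0.16 in R 4.3.3, robust, with group only and Benjamini-Hochberg adjustment over 13975 genes at 0.05; the common biological coefficient of variation was 0.126. SE is the log2 fold change over the square root of F. The test was checked on simulated counts. Ratios to hosts used log2 of CPM + 0.5 and a 2-sided exact permutation test. Same-numbered libraries deviated together (r = 0.33, 0.43 and 0.37 across genes). The main test did not use the numbers, and the replicate block, an alternative fit, took them as pairs. With the block the common biological coefficient of variation was 0.0595. Its use rests on the data, since no label says what a number marks. Libraries of a group differed beyond sampling noise (chi-square per degree of freedom 14.8 to 32.3).

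Genes named are the called ones, the 4 most abundant of each class, the listed precursor-processing RNAs, their hosts, hosts of 4 or more, the snoRNP genes and those nearest the read limit. The members and lists were chosen with earlier results of these data known. Alternatives were DESeq2 1.42.0, other scalings and filters, unstranded counts, the replicate block, stricter membership and each library left out. The sequence and the host of 1 called gene are not reported here.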

Additional observations from a re-analysis of the deposited data

How the results depend on the processing

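The replicate block, with which 56.9% of all genes were called, moved the calls of SNORA lower to 3 (0 without it), SNORD higher to 4 (2 without it), hosts higher to 18 and lower to 27 (6 and 14 without it) and snoRNP genes higher to 4 and lower to 19 (2 and 15 without it). With library size as the only scaling, SCARNA genes called higher numbered 0 (SCARNA7 lost its call) and snoRNP genes higher 1. Unstranded counts also gave 0 SCARNA genes higher, and no filter gave 1 snoRNP gene higher. Among members with at least 20 reads in all 6 libraries, 1 SNORD gene was lower. With 1 library left out, the calls ran from 0 to 1 for SNORA lower, 0 to 2 for SNORD higher, 1 to 3 for SNORD lower, 0 to 1 for SCARNA higher, 3 to 7 for hosts higher, 10 to 14 for hosts lower, and 1 to 2 for snoRNP genes higher, and the SNORD median ran from -0.13 to 0.05.

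Signs turned for some uncalled genes, among them SNORD3C, which was at log2 -0.40 in the main fit. With library size only, SCARNA13 was at -0.04, SNORA12 at -0.02 and SNORA53 at -0.03, and with TMM from protein-coding genes SNORD116-19 was at 0.01. With 1 library left out, the log2 fold change ran from -0.13 to 0.20 for SCARNA13, -0.08 to 0.25 for SCARNA5, -0.08 to 0.27 for SNORA12, -0.30 to 0.50 for SNORA53, -0.35 to 0.34 for SNORA54, -0.30 to 0.03 for SNORA71B, -0.35 to 0.04 for SNORA71C, -0.26 to 0.15 for SNORA73B, -0.37 to 0.00 for SNORD116-13, -0.10 to 0.32 for SNORD116-18, -0.15 to 0.11 for SNORD116-19, -0.32 to 0.13 for SNORD13, -0.08 to 0.48 for SNORD17 and -0.67 to 0.05 for SNORD3C. The cause was not tested. No scaling alternative moved the median of all genes by more than 0.06 (library size only, -0.06). At this depth 36 of the 106 genes averaged under 1 CPM, and the median SE of all 106 was 0.30 on the log2 scale. With groups of 3, no library was tested for standing apart.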
